A study of Mus musculus with 12 samples.

Results

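The miR-193 and miR-365 family comprised 4 of the 689 miRNA entries measured in small RNA that came down with induced AGO2 in mouse embryonic stem cells: mmu-miR-193, mmu-miR-193*, mmu-miR-193b and mmu-miR-365. The entries were taken by name, with any star suffix, and the family was selected on an earlier look at these measurements, in which miR-193 stood far above the total fraction in the nucleus with doxycycline. That fold is therefore given as a description. No star entry of miR-193b or miR-365 was among the 689.

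In every group the cells bore an AGO2 transgene, tagged with HA and FLAG and switched on by doxycycline, and they grew on gelatin with leukemia inhibitory factor. AGO2 belongs to the Argonaute proteins, which bind a miRNA and are guided by it to matching transcripts. The groups were nuclear with doxycycline, total with doxycycline, nuclear without doxycycline and total without doxycycline, with 3 libraries in each and 12 in all. Doxycycline was given at 2.5 ug/ml for the last 15 h before harvest. The antibody binds the FLAG tag, so the cells without doxycycline show which small RNA comes down without induction. The labels name the second fraction Total, whereas the protocol speaks of cytoplasm, and whether it held nuclei is unknown. The deposited table gives 1 mean count per entry and group. Its spread between libraries is thus unknown, no difference below was tested across replicates, and every error is a 95% interval for counting error only.

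A miRNA hairpin yields an arm from each side of its stem, and Argonaute usually keeps one of them. Older names mark the less abundant arm with a star. Bases 2 to 8 of the arm, the seed, choose the targets. In the mouse, miR-193a lies beside one copy of miR-365, and miR-193b beside the other. miR-193b and miR-365 are known for their enrichment in brown fat and for their part in making brown fat cells.

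The mature sequences are shown to set the seeds side by side, with the seed in capitals. They come from RefSeq on GRCm38.p6, where all 4 entries were matched, miR-193 as miR-193a-3p and miR-193* as miR-193a-5p.
mmu-miR-193: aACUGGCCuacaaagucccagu
mmu-miR-193b: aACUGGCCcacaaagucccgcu
mmu-miR-193*: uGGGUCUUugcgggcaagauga
mmu-miR-365: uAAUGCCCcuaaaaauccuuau
miR-193 and miR-193b share the seed ACUGGCC, and among the RefSeq mature miRNAs of the mouse these 2 alone hold it. They were identical at 19 of 22 bases and differed by U9C, A20G and G21C, counted from the 5′ end with the base of miR-193 first. Every difference therefore lay outside the seed. miR-193*, the opposite arm of the same hairpin, had the seed GGGUCUU, and miR-365 the seed AAUGCCC, neither found in another mouse mature miRNA of that table. All 4 arms were 22 bases long. Of their first 4 bases, 3 were A or U in miR-193 and miR-193b, 4 in miR-365 and 1 in miR-193*. GC content was 50% in miR-193, 59.1% in miR-193b, 54.5% in miR-193* and 31.8% in miR-365.

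The 4 hairpins are shown because their pairing on the genome links the entries, with both mature arms in capitals.
Mir193a: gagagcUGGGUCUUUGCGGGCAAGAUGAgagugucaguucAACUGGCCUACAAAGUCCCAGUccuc
Mir365-2: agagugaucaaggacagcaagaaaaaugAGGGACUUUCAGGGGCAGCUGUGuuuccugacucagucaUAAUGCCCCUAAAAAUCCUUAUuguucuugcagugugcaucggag
Mir193b: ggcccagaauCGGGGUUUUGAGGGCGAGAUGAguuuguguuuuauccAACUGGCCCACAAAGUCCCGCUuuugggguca
Mir365-1: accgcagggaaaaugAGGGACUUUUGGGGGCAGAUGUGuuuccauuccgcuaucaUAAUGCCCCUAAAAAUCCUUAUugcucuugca
Mir193a lies at chr11:79711969-79712034 and Mir365-2 at chr11:79726400-79726511 on the plus strand of GRCm38, 14365 bases apart, and no other GENCODE vM21 gene overlaps either hairpin. Mir193b lies at chr16:13449523-13449601 and Mir365-1 at chr16:13453840-13453926, 4238 bases apart on the plus strand. Both sit inside an intron of Gm15738, a gene annotated as antisense on the minus strand. The mature miR-365 is the same from both hairpins, so its reads cannot be assigned to a locus. The opposite, 5p arms of the copies differed at 3 of 23 bases. The name miR-193 was read as the chromosome 11 hairpin because the table lists miR-193b separately.

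**Figure D1:**
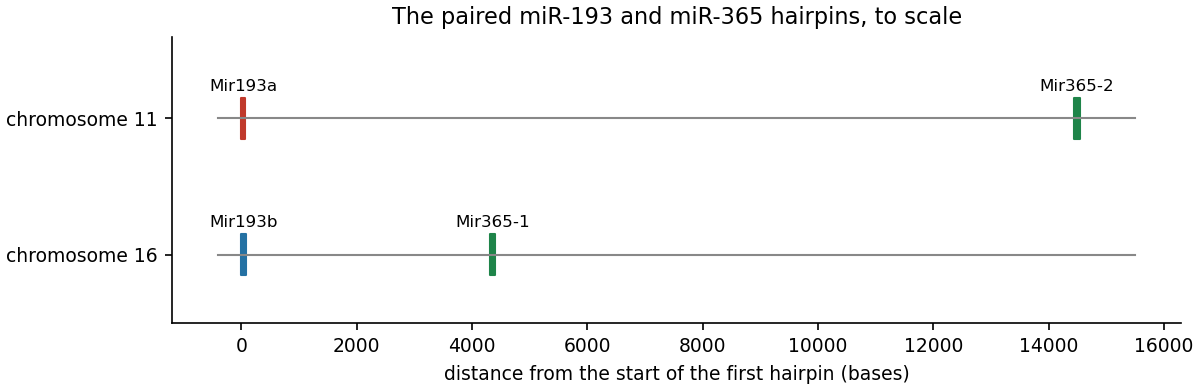
Positions of the 4 hairpins on chromosomes 11 and 16, drawn to scale as distance in bases from the start of the first hairpin of each pair. The hairpins of the chromosome 11 pair are 14365 bases apart and those of the chromosome 16 pair 4238 bases.

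The libraries carried 400794 (nuclear) and 539627 (total) mean miRNA reads with doxycycline, and 36329.9 and 16053.4 without it. Embryonic stem cell markers, 22 arms of the miR-290 to miR-295 and miR-302 to miR-367 hairpins, took 65.8% and 68.9% of reads with doxycycline and 14.3% and 32.3% of them in uninduced cells. The lists for fibroblasts, nerve, blood, muscle and liver took between 0.00111% (muscle, total with doxycycline) and 1.38% (blood, total without doxycycline). Reads of miR-805 alone came to 3.27% (nuclear) and 0.833% (total) of a library with doxycycline, but to 63.7% and 33.3% without it, which lowers every other share in the groups without doxycycline. miR-294 and miR-291a-3p, the 2 most abundant entries with doxycycline, stood at 160585 and 125284 CPM (a share of all miRNA reads, scaled to parts per 1000000) in the nuclear fraction.

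miR-193, the 3p arm of the chromosome 11 hairpin, averaged 239 reads per nuclear library and 69.7 per total library with doxycycline. Without doxycycline it averaged 9.67 and 10.7 reads. In reads, which depend on the depth of the libraries, it was thus highest in the nuclear fraction with doxycycline. Its reads were nearly equal in both groups without doxycycline, although the depth of these groups differed. As a share of the column it stood at 596 CPM (553 to 642) in the nuclear and 129 CPM (112 to 148) in the total fraction with doxycycline, and at 266 CPM (178 to 382) and 664 CPM (454 to 938) without it. With doxycycline it ranked 118 (nuclear) and 222 (total) among the 689 entries, and without it 177 and 134. By share the lowest group was the total fraction with doxycycline, and the intervals of the nuclear fraction with doxycycline and the total fraction without it overlapped. The intervals of both groups without doxycycline lay apart. With miR-805 left out of the totals they overlapped, at 733 CPM (491 to 1052) in the nuclear and 995 CPM (681 to 1405) in the total fraction.

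miR-193*, the 5p arm of the same hairpin, averaged 11 reads per nuclear library and 25.7 per total library with doxycycline. Without doxycycline it averaged 30.3 and 40.7 reads. It had fewer reads with doxycycline in both fractions, although the libraries with doxycycline were larger. In shares it stood at 27.4 CPM (18.9 to 38.5) and 47.6 CPM (37.5 to 59.4) with doxycycline, and at 835 CPM (672 to 1025) and 2533 CPM (2104 to 3025) without it. It ranked 347 and 295 with doxycycline, but 73 and 49 of 689 without it.

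miR-193b, which shares the seed of miR-193, averaged 30.3 reads per nuclear library and 37 per total library with doxycycline. Without doxycycline 4 and 1 reads were counted over the 3 libraries of each group. Its shares with doxycycline, 75.7 CPM (60.9 to 92.9) and 68.6 CPM (56.4 to 82.6), overlapped between the fractions. miR-365, made from both loci, averaged 17.3 and 21.7 reads with doxycycline, or 43.2 CPM (32.3 to 56.7) and 40.2 CPM (31.0 to 51.2), which also overlapped. Without doxycycline 10 nuclear reads and 1 total read of it were counted over the 3 libraries of a group.

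The order of the members differed between the groups. In the nuclear fraction with doxycycline it was miR-193, miR-193b, miR-365 and miR-193*, and the intervals of the last pair overlapped. In the total fraction with doxycycline it was miR-193, miR-193b, miR-193* and miR-365, and each of the last 3 overlapped with its neighbour. Without doxycycline miR-193* came first and miR-193 second in both fractions, with intervals apart, and those of miR-193b and miR-365 overlapped. The 4 entries together made up 743 and 285 CPM with doxycycline and 1229 and 3239 CPM without it. miR-193 supplied 80.3% and 45.2% of these reads with doxycycline, and miR-193* supplied 67.9% and 78.2% of them without it.

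**Figure D2:**
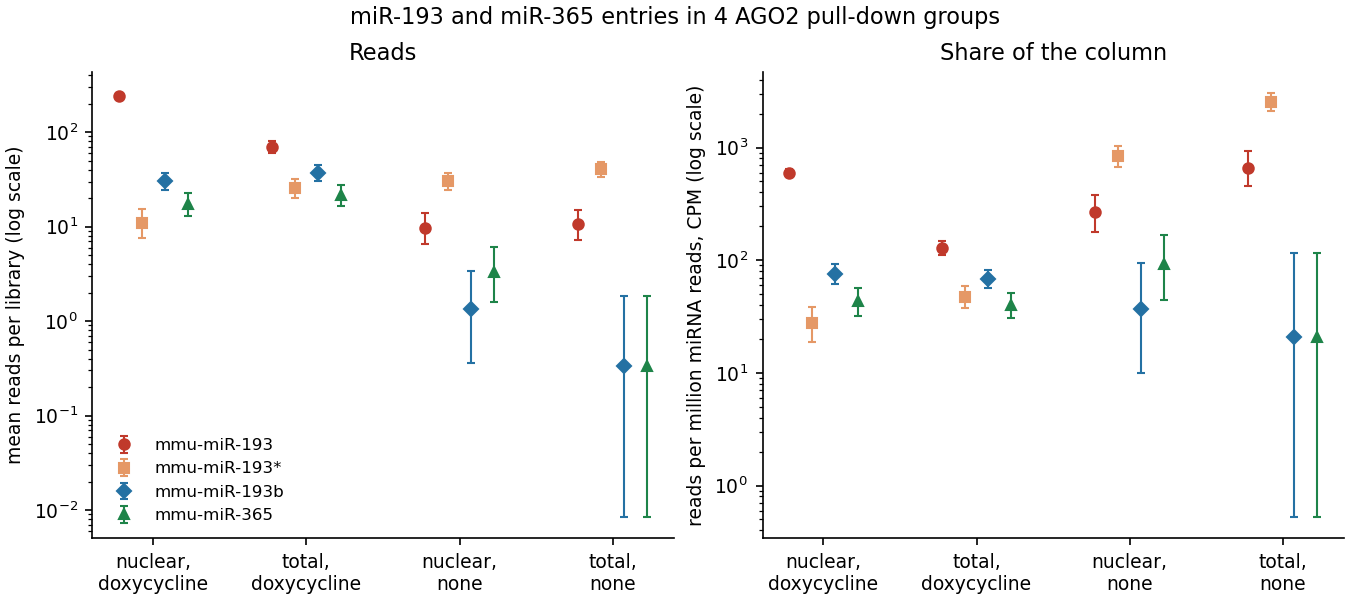
Mean reads per library (left) and CPM (right), both on log axes, for the 4 entries in the 4 groups, with points for the authors' group means and bars for exact Poisson 95% intervals of the reads over 3 libraries. miR-193 stands apart at 239 mean reads in the nuclear fraction with doxycycline, and miR-193* leads the family in both groups without doxycycline.

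The first comparison, between the fractions of induced cells, asks which miRNAs nuclear AGO2 holds in excess. miR-193 was 4.57-fold higher in the nuclear fraction, a log2 fold of 2.19 (1.97 to 2.42) on counts scaled with TMM, a factor that centres the typical miRNA near no change. In plain reads it was 3.43 times (2.94 to 4.02) as abundant, while all miRNA reads stood at 0.743 times. Its rank was 21 of the 378 entries that reached a mean of 10 reads in one of the groups, and second of the 189 that were above the median abundance. A nuclear excess of 2-fold or more was found for 10.3% of these 378 entries, and a deficit of that size for 3.97%. Of the 4 members 1 was higher and 0 lower, and nothing is read from that count because the family was selected on this contrast.

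The other members lay within 2-fold. The log2 fold was 0.13 (-0.29 to 0.54) for miR-193b and 0.09 (-0.46 to 0.64) for miR-365, so both intervals included no change. miR-193* lay on the other side at -0.81 (-1.44 to -0.20). The arms of one hairpin thus stood on opposite sides of no change, although the miR-193 side is the value that selected the family. The seed partner on chromosome 16 did not share the nuclear excess of miR-193. In both fractions miR-193* had fewer reads with doxycycline than without. Its nuclear over total log2 fold without doxycycline was similar, at -0.85 (-1.26 to -0.45). Whether its deficit depended on the induced AGO2 was not tested. Directly above miR-193 in the order of folds was miR-466f-3p of the Sfmbt2 cluster at 2.21 (1.71 to 2.72), with 50.7 nuclear and 14.6 total mean reads. Directly below was miR-805 at 1.96 (1.93 to 1.99). miR-193b lay between miR-200a (0.13) and miR-299* (0.12), miR-365 between miR-101a* (0.09) and miR-290-5p (0.09), and miR-193* between miR-154 (-0.80) and miR-409-3p (-0.81).

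Ratios between members within a column need no scaling. With doxycycline miR-193 had 7.88 reads (6.33 to 9.91) for each miR-193b read in the nuclear and 1.88 (1.49 to 2.39) in the total fraction. For each miR-365 read it had 13.8 (10.4 to 18.6) and 3.22 (2.42 to 4.32). These ratios restate the miR-193 reads on which the family was selected, so nothing further is read from their difference between the fractions. The ratio of miR-193b to miR-365 was nearly the same in the fractions, at 1.75 (1.23 to 2.51) and 1.71 (1.25 to 2.36). Both seed partners together had 15.5 reads (11.7 to 21.0) for each miR-365 read in the nuclear and 4.92 (3.76 to 6.53) in the total fraction. That ratio again includes the miR-193 reads that selected the family, so its difference between the fractions is given as a description. Without doxycycline the nuclear ratio of miR-193 to miR-193b was 7.25 (2.55 to 28.4), and the total ratio rested on 1 read of miR-193b.

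Cells with and without doxycycline were compared in each fraction to ask which small RNA depended on the induced AGO2. In the nuclear fraction miR-193 went from 29 reads over the group without to 717 with doxycycline, a ratio of 24.7 (17.1 to 37.2), where all miRNA reads stood at 11.03 (10.96 to 11.10). In the total fraction it went from 32 to 209 reads, a ratio of 6.53 (4.49 to 9.80), where all reads stood at 33.6 (33.3 to 33.9). miR-193 thus exceeded the ratio of its library total in the nuclear and fell short of it in the total fraction. Relative to the typical miRNA its log2 fold was 0.66 (0.13 to 1.25) in the nuclear fraction, which turned to -0.25 (-0.78 to 0.34) by library totals without miR-805, where the median of all entries was at -0.87. In the total fraction it was -2.30 (-2.84 to -1.72), which turned to 2.71 without scaling, where the median of all entries was at 5.05. The difference between these folds was 2.96 (2.20 to 3.72, normal approximation to counting error), rank 5 of 345 entries measured in both fractions. Of those 345 entries 1.45% lay above 0 in the nuclear and below 0 in the total fraction with both intervals off 0. The 5 entries were miR-193, miR-434-5p, miR-130b, miR-30e and miR-499. This difference shares its samples with the nuclear contrast that selected the family, so it is no separate finding. In the nuclear comparison miR-193 passed the minimum of 10 only through the column with doxycycline, since its mean without doxycycline was 9.67.

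miR-193* lay at the low end in both fractions. It went from 91 to 33 reads over the group in the nuclear and from 122 to 77 in the total fraction, ratios of 0.363 (0.236 to 0.546) and 0.631 (0.468 to 0.846). Both intervals lay below 1. Fewer reads with doxycycline were seen for 11.1% of 371 entries in the nuclear and 3.34% of 359 in the total fraction, and miR-193* was 1 of 11 entries for which this held in both. Of entries with a star, 12 of 64 had fewer reads in the nuclear and 6 of 69 in the total fraction, against 29 of 307 and 6 of 290 entries with none. In relative terms its log2 folds were -5.43 (-6.05 to -4.84) and -5.67 (-6.10 to -5.25), or 363 of 371 and 355 of 359 in order. Entries with a star had median log2 folds of -2.45 and -2.83, against 0.34 and 0.41 for those with none, and the folds of miR-193* lay below both medians.

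miR-193b had 91 nuclear reads over the group with doxycycline against 4 without, and 111 total reads against 1. Its relative log2 folds were 0.54 (-0.87 to 2.45) and 1.79 (-0.72 to 7.10), and neither interval excluded no change. With no minimum count they were 2.35 (0.94 to 4.25) and 2.78 (0.27 to 8.10), both off 0, where the medians of all entries were at -0.43 and -1.07. By library totals without miR-805 the nuclear fold turned to -0.37 (-1.77 to 1.54), where the median of all entries was at -0.87. miR-365 had 52 reads against 10 in the nuclear and 65 against 1 in the total fraction. Its relative log2 fold was -1.59 (-2.58 to -0.45) in the nuclear fraction. By library totals, where the median of all entries was at 0.55, its interval reached no change, at -1.09 (-2.08 to 0.06). The fold turned to 2.38 without scaling, still below the median of all entries at 4.01. With no minimum count it turned to 0.22, above their median at -0.43. In the total fraction it was 1.01 (-1.52 to 6.34). Both entries passed the minimum only through the columns with doxycycline, so depth without doxycycline limits these folds. By the 2-fold rule 0 of the 4 members were higher and 2 were lower in the nuclear fraction, where 30.5% of 371 entries were higher and 33.7% lower. By library totals miR-193 (1.16) and miR-193b (1.04) also passed 2-fold there. With that scaling the median of all entries was at 0.55, and 151 of 371 entries were higher. In the total fraction 2 were higher and 2 lower, where 31.8% of 359 entries were higher and 32.0% lower, but neither higher member had an interval off 0. The call of miR-365 was lost by library totals, at 0.95, and by library totals without miR-805, at 0.38. The medians of all entries were then at -0.02 and -0.59, and 107 and 70 of 359 entries were higher.

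The last comparison set the fractions of uninduced cells side by side. Nuclear over total, miR-193 lay at -0.57 (-1.34 to 0.20) on the log2 scale, and at -1.32 (-2.10 to -0.55) by library totals. miR-193* lay at -0.85 (-1.26 to -0.45). The nuclear excess of miR-193 was therefore not seen in these reads. miR-193b and miR-365 had means under 10 in both groups and were not compared. Neither of the 2 members that passed the minimum reached 2-fold, where 23.8% of 189 entries were higher by that rule and 16.9% lower. By library totals both were more than 2-fold lower, miR-193* at -1.60, where the median of all entries was at -0.84 and 76 of 189 entries were lower.

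**Figure D3:**
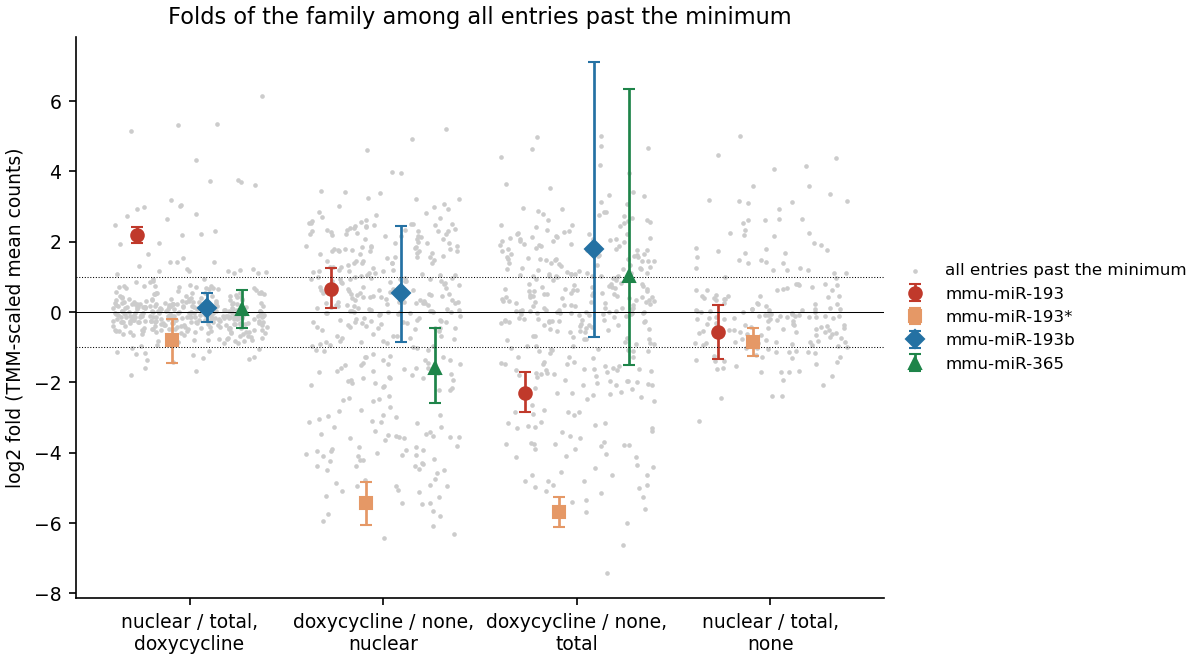
Log2 folds of TMM-scaled mean counts in the 4 comparisons, with grey points for all entries past the minimum count, coloured points for the family, bars for 95% counting intervals and dotted lines at 2-fold. miR-193 lies at 2.19 between the fractions with doxycycline, and miR-193* lies near the bottom of both comparisons of doxycycline with none (-5.43 and -5.67).

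The balance of the arms of the miR-193 hairpin changed sides between the groups. miR-193 made up 95.6% (93.9 to 97.0) of the reads of both arms in the nuclear and 73.1% (67.5 to 78.1) in the total fraction of induced cells. Without doxycycline it made up 24.2% (16.8 to 32.8) and 20.8% (14.7 to 28.0). The unstarred arm thus led with doxycycline and the star arm led without it. The gap between the fractions of induced cells rests on the miR-193 reads that selected the family and is given as a description.

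Other hairpins with a starred entry give the background, taking those with at least 30 reads of both arms over a group. With doxycycline the star arm outnumbered its partner in 3.26% of 92 pairs in the nuclear and 3.26% of 92 pairs in the total fraction. Without doxycycline it did so in 39.1% of 64 pairs and 41.4% of 58 pairs. The pair of miR-193 was 1 of 24 of 64 in the nuclear and 1 of 23 of 58 in the total fraction in which the lead passed from the unstarred arm with doxycycline to the star without it, so that this switch was common among star pairs. The median share of the unstarred arm was 95.7% (nuclear) and 94.2% (total) in induced cells, and 61.9% and 62.3% in uninduced cells. The share of miR-193 in the nuclear fraction with doxycycline lay close to that median, with 44 pairs below it, while in the total fraction 6 of 92 pairs were lower. Between the fractions with doxycycline the share of miR-193 differed by 22.5 percentage points, where the median of 91 pairs was -0.01. That difference again uses the selecting reads, so its place among the pairs is no separate finding. Without doxycycline the difference was 3.39 percentage points, rank 20 of 54 pairs.

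**Figure D4:**
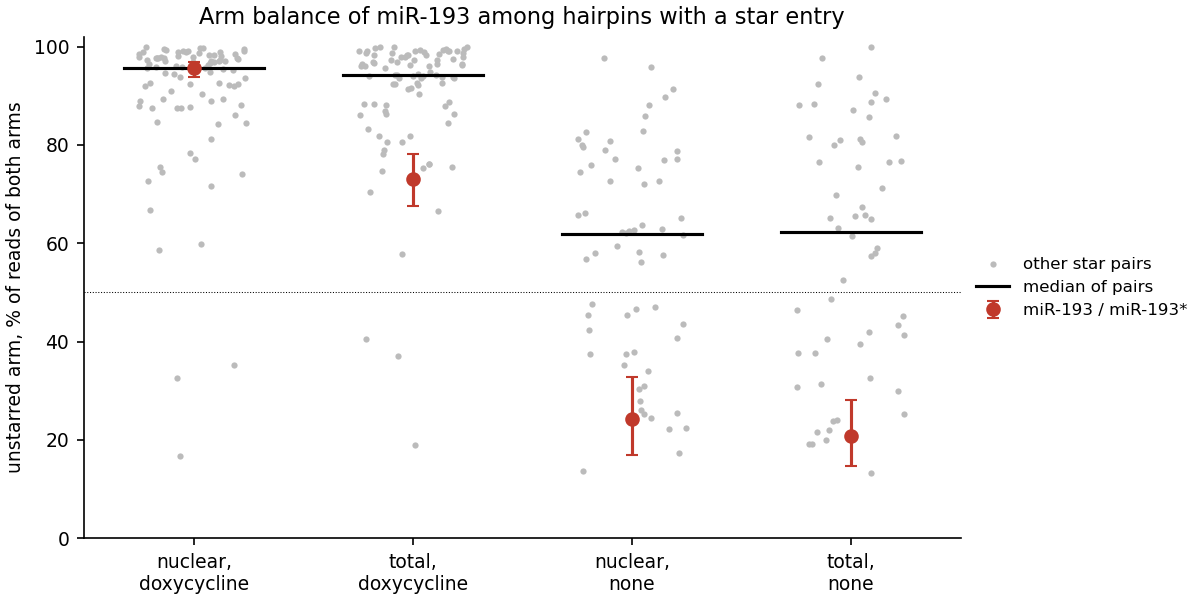
Share of the unstarred arm in the reads of both arms (percent) for hairpins with a starred entry and at least 30 reads, by group, with grey points for other pairs, black lines for medians and red points with exact binomial 95% intervals for miR-193. miR-193 goes from 95.6% and 73.1% with doxycycline to 24.2% and 20.8% without it, and the medians from 95.7% and 94.2% to 61.9% and 62.3%.

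Likeness was measured as the distance between the 4 log2 CPM values of an entry, each centred on its mean, over 385 entries and 4 groups. Nearest to miR-193 were miR-466f-3p (0.82), miR-544 (1.16), miR-297a* (1.21), miR-142-5p (1.29) and miR-29b (1.34). miR-466f-3p stood at 127 and 27.0 CPM in the nuclear and total fraction with doxycycline and at 105 and 128 CPM without it, lowest like miR-193 in the total fraction with doxycycline. miR-193b and miR-365 were farther from miR-193, at 2.85 and 2.88, and miR-193* was at 5.15. Distances from miR-193 use the reads that selected the family and are given as a description. Nearest to miR-193* were miR-30b* (0.56), miR-124* (0.81) and miR-29b* (0.91), all star arms. Nearest to miR-193b were miR-302c (0.36), miR-485* (0.36) and miR-301b (0.46). miR-365 had miR-380-5p (0.44), miR-18a* (0.75) and miR-542-3p (0.75) nearest, and miR-193b at 1.70. No 2 members were among each other's nearest entries. Several of these distances rest on few reads without doxycycline. In the total fraction without it miR-193b, miR-365, miR-302c, miR-380-5p and miR-542-3p each had a mean of 0.33 reads. miR-544 had that mean in both groups without doxycycline.

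A list of 21 other miRNAs tied to brown fat, as promoters or as repressors of it, covered 37 entries. Between the fractions with doxycycline 1 of 28 that passed the minimum was at least 2-fold higher in the nucleus and 5 were lower, beside 10.3% and 3.97% of all 378 entries and 10 lower of 68 entries with a star. The median log2 fold of the list was -0.16, against -0.04 for all 378 entries. The higher one was miR-32 at 1.11, with 266 nuclear and 164 total mean reads. The lower ones were star arms, miR-27a* (-1.80), miR-30c-1* (-1.69), miR-26b* (-1.59), miR-30c-2* (-1.33) and miR-30b* (-1.18). miR-27b, a repressor of brown fat, was at -0.55, and miR-196a, a promoter of it, at -0.02. With doxycycline against none, 10 entries were higher and 9 lower of 27 in the nuclear fraction (median 0.53, against 0.04 for all), where 30.5% of all entries were higher and 33.7% lower. In the total fraction 8 were higher and 11 lower of 28 (median 0.20, against 0.04), where 31.8% of all entries were higher and 32.0% lower. miR-106b and miR-93, both from a miR-17-92 paralogue, led the nuclear folds at 3.43 and 3.38. Without doxycycline 1 was higher and 3 lower of 17 in the nuclear against the total fraction (median -0.31, against -0.09 for all), where 23.8% of all entries were higher and 16.9% lower. miR-133a and miR-133b, muscle miRNAs that hold back brown fat, had at most 6.11 mean reads in any group.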

How the data were processed

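The table analysed held estimated counts (expected counts) of reads per miRNA entry, which the authors deposited as 1 mean per group. The division by 3 libraries was read from the numbers, since after multiplication by 3 all 16 values of the 4 members were whole to within 1e-06, as were 78.4% to 91.4% of each column. TopHat, bcl2fastq 2.17.1 and the mm10 build are named, per the submitters' processing notes. The counting step, and how reads matching several miRNAs were treated, is not given in the sources used here.

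Folds used mean counts scaled with TMM factors (edgeR 4.0.16, R 4.3.3) over entries with a mean of at least 10 in either group, and the ratio of reads over the group was given an exact Clopper-Pearson interval. Entries at 0 were set to 3 reads. Levels carry exact Poisson and arm shares exact binomial intervals. Reads come from PCR without molecular identifiers. For likeness, 1 was added to CPM. Alternatives were library totals with and without miR-805, median-of-ratios factors (DESeq2 1.42.0), no scaling, no minimum count, and subtraction of reads without doxycycline. Statistics ran in SciPy 1.17.1, pandas 2.3.3 and numpy 2.4.6 (Python 3.11.15) and figures in matplotlib 3.10.9. The fold procedure was tested on simulated Poisson counts drawn from the average profile of both compared columns. These held no spread between libraries, so that test cannot cover such spread in the real data. The named entries are all members, the 5 nearest to miR-193 and 3 nearest to each other member, the neighbours in the order of folds, and the 2 most abundant entries. Examples from the brown fat list were chosen after their values were seen. The members and lists were chosen with earlier results of these data known.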

Additional observations from a re-analysis of the deposited data

Results flagged for a closer look

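miR-193 was flagged here because its relative doxycycline folds pointed in opposite directions in the fractions. Both folds use the reads with doxycycline that selected the family, so their opposite directions are no separate finding. The log2 fold was 0.66 in nuclear and -2.30 in total libraries, from 29 to 717 and from 32 to 209 reads over the group. Each value is a group mean, so whether all libraries share the direction is unknown, and the difference was not tested across replicates. For the nuclear fold miR-193 passed the minimum only through the column with doxycycline, since its mean without doxycycline was 9.67. The nuclear direction held with TMM, library totals, median-of-ratios factors, no scaling and no minimum count, and turned by library totals without miR-805, as given below. The total direction held under those settings except without scaling, where it turned to 2.71, so the opposite directions were lost there and by library totals without miR-805. Depth and the share of miR-805 moved with the groups, and their part in the result was not tested.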

How the results depend on the processing

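The family was selected on the log2 fold of miR-193 between the fractions with doxycycline, and all alternatives reuse its reads. That fold stayed above 1 under every alternative, which is given as a description. It was 1.78 without scaling, 2.50 with the reads without doxycycline subtracted and 2.44 with that subtraction scaled to miR-805. For the nuclear doxycycline fold of miR-193 the values were 4.63 without scaling, -0.25 by library totals without miR-805 and 2.47 with no minimum count. The total doxycycline fold of miR-193 was 2.71 without scaling, -2.93 by library totals without miR-805 and -1.31 with no minimum count. The difference between the doxycycline folds of miR-193 was 1.92 without scaling and 3.77 with no minimum count. miR-365 turned in the nuclear doxycycline comparison, to 2.38 without scaling and 0.22 with no minimum count. miR-193* kept its sign in both doxycycline comparisons, at -1.46 (nuclear) and -0.66 (total) without scaling, -6.34 and -6.31 by library totals without miR-805, and -3.62 and -4.68 with no minimum count. Between the fractions without doxycycline miR-193* was at -1.60 by library totals and -0.42 without scaling. The difference between its doxycycline folds, 0.24 (-0.46 to 0.95), was -0.80 without scaling, -0.03 by library totals without miR-805 and 1.05 with no minimum count. Part of these shifts follows from the scaling itself, and the rest was not tested. The median log2 fold of all entries moved from 0.04 to 4.01 (nuclear) and from 0.04 to 5.05 (total) without scaling, to -0.87 and -0.59 by library totals without miR-805, and to -0.43 and -1.07 with no minimum count.

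Counts over all entries that moved by over 1.5 times were, without scaling, 44 against 15 lower between the fractions with doxycycline, 301 against 113 higher and 15 against 125 lower for nuclear doxycycline, and 330 against 114 higher and 3 against 115 lower for total doxycycline. With no minimum count 170 were higher and 50 lower between the fractions with doxycycline, 247 and 301 for nuclear doxycycline, 188 and 316 for total doxycycline and 164 and 122 (against 45 and 32) between the fractions without it. By library totals without miR-805 60 were higher for nuclear and 70 for total doxycycline. Without doxycycline 29 were higher and 76 lower by library totals, and 15 lower without scaling. Subtraction left 15 against 39 higher and 31 against 15 lower, and its scaled form 20 against 39 higher. No share of both arms was obtained with subtraction, since miR-193* had fewer reads with doxycycline. No paired analysis was possible because the table holds 1 mean per group, and no library could be left out. Depth limits miR-193b and miR-365 without doxycycline, where 1 to 10 reads were counted over a group.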
